A study of Mus musculus with 14 samples.

Results

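Of the 75761 cytosines in the deposited table of reduced-representation bisulfite sequencing (RRBS), 9140 (12.1%) lay in an exon and outside both promoters and CpG islands. They were taken as the rows on chromosomes 1 to 19 that the table flagged as exon and flagged neither as promoter nor as island, and they are called exon sites here. All but 1 sat at the C of a CpG in the mm10 genome. The exon sites fell in 2226 host genes by GENCODE M21, with a median of 2 sites per gene. In 721 genes a single site was measured, and 215 genes held at least 10. The classes most like them served for comparison, 18717 intron sites outside promoters, islands and exons, and 18880 intergenic sites that carried none of these flags.

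The DNA came from the mammary fat pad opposite the tumor in 14 female wild-type C57BL/6N mice, each with E0771 mouse mammary cancer cells injected into the other pad 22 weeks after randomization. CON-LFD mice (n = 3) received control low-fat diet throughout, and the other groups were first made obese on a 60% high-fat diet. DIO-HFD mice (n = 4) then stayed on that diet, DIO-LFD mice (n = 3) changed to low-fat diet, and DIO-VSG mice (n = 4) underwent vertical sleeve gastrectomy, the removal of much of the stomach, followed by low-fat diet. Every mouse without the gastrectomy had sham surgery, and the labels' cell line and cell type tags name the injected tumor cells, not the tissue sampled. The 4 comparisons ask how obesity and each way of losing weight relate to methylation, with DIO-HFD as the reference in 3 of them and DIO-LFD as the reference for DIO-VSG in the last.

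RRBS cuts DNA with MspI at CCGG, sequences the short fragments, and reads a methylated cytosine as C and an unmethylated one as T after bisulfite treatment. DNA methylation is written by the DNMT enzymes and removed through the TET enzymes. In mammals CpGs inside transcribed gene bodies are mostly methylated, whereas CpG islands at promoters are mostly not, and in exons the same base can be under constraint as part of a codon and carry the methyl mark. In a whole fat pad the level at a site is an average over adipocytes, epithelium, vessels and immune cells, so a change in the share of a cell type and a change of methylation within its cells cannot be told apart.

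The first set of sequences shows coding exon stretches that held the clusters with the smallest p-values in the comparisons below. A cluster was a run of at least 3 measured sites with gaps of at most 100 bp. Each line runs 5′ to 3′ on the coding strand of mm10, and capitals mark the CpGs that were measured. Hectd4, a HECT-domain ubiquitin ligase, was read at chr5:121313939-121313993 in exon 35 of 76. Alpk3, an alpha-kinase of heart muscle, was read at chr7:81078246-81078339 in exon 5 of 14. The exon at chr5:137637232-137637283 belongs to Lrch4, a leucine-rich repeat protein, and also to the readthrough gene Gm20605, in which it is exon 7 of 22. Efna4, the ephrin-A4 ligand, was read at chr3:89334350-89334376 in exon 4 of 4. Tirap, an adaptor of Toll-like receptors, was read at chr9:35188839-35188894 in exon 6 of 7, and Nacad at chr11:6601818-6601874 in exon 2 of 8.
Hectd4: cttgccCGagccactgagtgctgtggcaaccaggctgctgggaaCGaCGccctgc
Alpk3: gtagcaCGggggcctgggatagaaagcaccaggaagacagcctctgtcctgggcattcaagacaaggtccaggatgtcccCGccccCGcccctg
Lrch4: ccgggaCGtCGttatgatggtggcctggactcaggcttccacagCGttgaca
Efna4: gggtggCGgggaggacaCGCGcccagc
Tirap: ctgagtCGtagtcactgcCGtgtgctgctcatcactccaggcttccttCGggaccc
Nacad: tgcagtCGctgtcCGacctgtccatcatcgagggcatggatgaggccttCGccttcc

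The second set shows the largest coding clusters of 4 of the genes with the most exon sites, chosen after their values were seen because they went different ways. Apc2, a relative of the tumor suppressor APC, was read at chr10:80313602-80313764 in exon 15 of 15, with 10 sites. Rai1, a nuclear regulator of transcription, was read at chr11:60189653-60189887 in exon 3 of 6, with 11 sites. Ltbp3, which binds latent TGF-beta in the matrix, was read at chr19:5757311-5757470 in exon 25 of 28, with 8 sites, and Cacna1g, the pore subunit of a T-type calcium channel, at chr11:94409371-94409564 in exon 38 of 38, with 8 sites.
Apc2: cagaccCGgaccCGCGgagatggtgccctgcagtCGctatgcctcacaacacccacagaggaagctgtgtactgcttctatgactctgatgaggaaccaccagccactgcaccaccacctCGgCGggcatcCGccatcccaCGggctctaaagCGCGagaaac
Rai1: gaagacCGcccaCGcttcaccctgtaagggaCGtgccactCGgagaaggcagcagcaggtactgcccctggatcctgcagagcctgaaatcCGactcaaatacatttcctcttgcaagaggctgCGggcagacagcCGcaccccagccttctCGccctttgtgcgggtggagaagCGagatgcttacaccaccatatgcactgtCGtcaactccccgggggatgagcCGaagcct
Ltbp3: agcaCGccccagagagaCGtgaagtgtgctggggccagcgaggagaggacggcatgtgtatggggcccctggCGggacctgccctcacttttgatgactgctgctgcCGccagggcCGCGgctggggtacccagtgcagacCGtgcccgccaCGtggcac
Cacna1g: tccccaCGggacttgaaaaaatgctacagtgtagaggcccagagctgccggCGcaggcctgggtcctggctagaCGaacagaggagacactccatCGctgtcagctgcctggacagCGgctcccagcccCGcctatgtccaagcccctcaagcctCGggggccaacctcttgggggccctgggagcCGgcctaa

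Exon sites were mostly methylated. The median of their mean levels over the 14 mice was 75.3%, with quartiles of 57.3% and 84.2%, beside medians of 74.0% for intron and 82.8% for intergenic sites. A mean of at least 80% was seen at 3515 exon sites (38.5%, against 37.6% of intron and 55.7% of intergenic sites), and a mean under 20% at 315 (3.45%). The median SD of a site over the mice was 6.96 percentage points, close to the 7.05 and 6.93 points of the other classes. Exon sites lay at CCGG less often than intron sites, 18.9% against 28.6%. Their distance from the nearest transcript start ran from 1002 to 239905 bp with a median of 5360 bp. That nearest start belonged to the host gene at only 4835 sites (52.9%), so each site is named here by the gene whose exon holds it. Exons of more than 1 gene covered 260 sites, and 11 sites were in no GENCODE exon.

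One library of the DIO-HFD group stood apart in every class. Mean exon levels in the DIO-HFD mice were 72.7%, 61.8%, 63% and 62.6% for replicates 1 to 4. DIO-HFD replicate 1 was thus the highest of all 14 mice, and the other 3 DIO-HFD mice were the lowest of all. CON-LFD mice had 70.8%, 70.4% and 65.9%, DIO-LFD mice 72.2%, 66.4% and 69.1%, and DIO-VSG mice 71.5%, 71.0%, 70.9% and 71.2%. The DIO-VSG mice lay close together. The main counts and mean differences that involve DIO-HFD are given with and without replicate 1. Many others, among them most differences of single genes and gene lists, are given only with it.

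**Figure D1:**
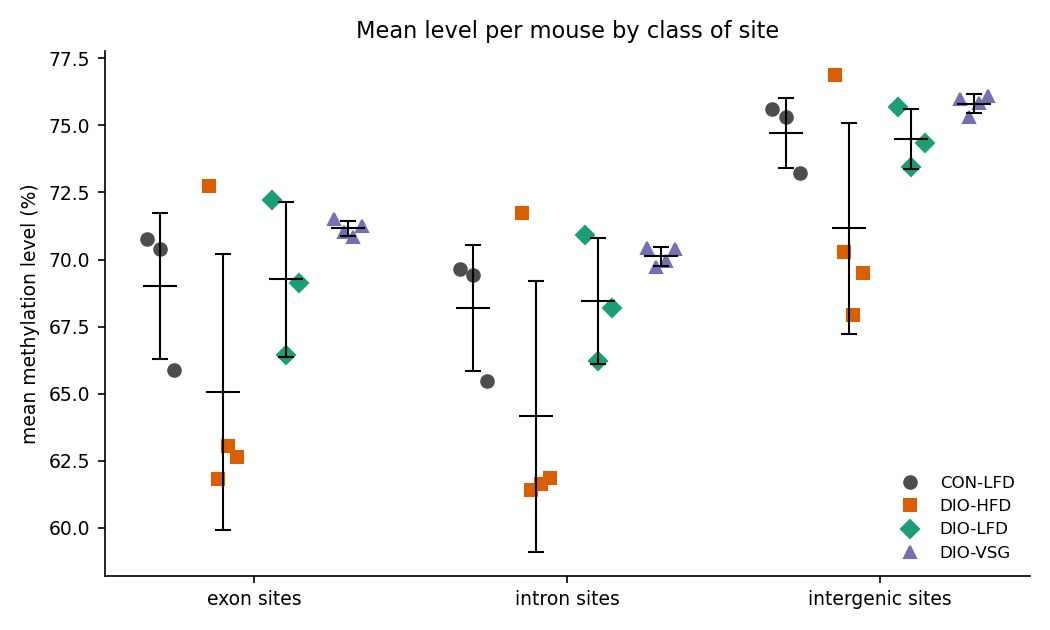
Mean methylation level (%, vertical axis, not starting at 0) of exon, intron and intergenic sites, with 1 point per mouse, the group mean as a bar and the SD as whiskers. In exon sites DIO-HFD replicate 1 stood at 72.7% and the other DIO-HFD mice between 61.8% and 63%, while the 4 DIO-VSG mice stood between 70.9% and 71.5%.

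The share of exon sites at 80% or more separated the mice more widely than the mean. It was 52.2% in DIO-HFD replicate 1 and 21.8%, 23.3% and 23.9% in the other DIO-HFD mice. In DIO-VSG mice it was 49.3%, 46.7%, 46.7% and 48.1%. CON-LFD mice gave 45.4%, 44.5% and 30.0%, and DIO-LFD mice gave 50.3%, 31.9% and 39.5%, so that both groups reached from near the DIO-VSG values down toward the lower DIO-HFD mice.

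Group means were 69.0% ± 2.71 (SD, n = 3) in CON-LFD, 65.1% ± 5.14 (n = 4) in DIO-HFD, 69.3% ± 2.89 (n = 3) in DIO-LFD and 71.2% ± 0.276 (n = 4) in DIO-VSG. The difference from DIO-HFD was 3.96 points for CON-LFD (two-sided exact permutation p = 0.229), 4.21 points for DIO-LFD (exact p = 0.286) and 6.10 points for DIO-VSG (exact p = 0.143). DIO-VSG exceeded DIO-LFD by 1.89 points (exact p = 0.286). Adjusted over these 4 tests, each p was 0.286, and none of the differences passed the test. With 3 against 4 mice no p below 0.0571 can be reached, and with 4 against 4 none below 0.0286. When DIO-HFD replicate 1 was left out the DIO-HFD mean was 62.5% ± 0.615 (n = 3), and the differences were 6.51, 6.77 and 8.66 points, with no overlap between groups. Their exact p-values of 0.1, 0.1 and 0.0571 were then the smallest the designs allow.

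Exon sites stood slightly above intron sites and well below intergenic sites in the same mice. The exon mean exceeded the intron mean by 0.907 ± 0.358 points (SD, n = 14), in 14 of 14 mice, from 0.221 points in DIO-LFD replicate 2 to 1.42 points in DIO-HFD replicate 3 (paired permutation p = 0.000122, the smallest 14 mice can give). Over sites with an SD of at least 0.05 it was 0.373 points (permutation p = 0.00525), and over sites outside CCGG 1.96 points. With each gene weighted equally the difference was -0.170 ± 0.55 points and its direction reversed (permutation p = 0.265). Against intergenic sites the exon mean was lower by 5.41 ± 1.43 points in 14 of 14 mice (permutation p = 0.000122).

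The differences between groups were much the same size in exons and introns. In intron sites DIO-VSG exceeded DIO-HFD by 5.96 points, CON-LFD by 4.04 and DIO-LFD by 4.29. The exon-minus-intron gap of each mouse differed between groups by -0.08, -0.08, 0.14 and 0.22 points for CON-LFD, DIO-LFD and DIO-VSG against DIO-HFD and DIO-VSG against DIO-LFD (exact permutation p = 0.857, 0.8, 0.6 and 0.686; adjusted p = 0.857 for each). Leaving out CON-LFD replicate 3 or DIO-HFD replicate 3 turned the direction of the first value (to 0.13 and 0.10), DIO-HFD replicate 3 or DIO-LFD replicate 2 that of the second (to 0.10 and 0.22), DIO-HFD replicate 2 that of the third (to -0.03) and DIO-LFD replicate 2 that of the fourth (to -0.09). No group difference particular to exons was detectable with these mice.

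Levels differed between the parts of the transcript in every mouse. Coding sequence held 6926 exon sites (75.8%) with a mean over mice of 70.2%, the 3′ UTR 1662 sites with 66.5%, the 5′ UTR 128 sites with 57.3% and noncoding exons 413 sites with 54.2%. Coding sites exceeded 3′ UTR sites by 3.71 ± 0.294 points, 5′ UTR sites by 12.9 ± 0.896 points and noncoding exons by 15.9 ± 1.0 points (SD, n = 14), each in 14 of 14 mice. Internal exons, with 5421 sites, averaged 70.1%, last exons 67.1%, first exons 62.1% and genes of a single exon 59.4%. DIO-VSG exceeded DIO-HFD by 6.15 points in coding sequence, 6.05 in 3′ UTRs, 7.91 in 5′ UTRs and 5.0 in noncoding exons, and without DIO-HFD replicate 1 by 8.73, 8.61, 10.6 and 7.08 points.

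Codon position carried a small difference. Sites whose C was the first base of a codon averaged 71.3% (2662 sites), against 69.2% at the second base (1521 sites) and 69.6% at the third base (2743 sites). The first base exceeded the second by 2.12 ± 0.268 points and the third by 1.63 ± 0.472 points, both in 14 of 14 mice. Between the third and second bases the difference was 0.485 ± 0.486 points, above 0 in 11 of 14 mice. These sites come from different genes and distances, and none of these levels was adjusted for either.

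Levels were higher farther from transcript starts, up to the last bin. Sites up to 2000 bp from the nearest start averaged 62.9%, those at 2000 to 5000 bp 66.9%, those at 5000 to 10000 bp 69.9%, those at 10000 to 20000 bp 73.1%, and those beyond 20000 bp 72.4%. The bin at 10000 to 20000 bp exceeded the nearest bin by 10.2 ± 0.486 points, in 14 of 14 mice. Sites within CCGG averaged 73.5% and others 67.4%. The DIO-VSG minus DIO-HFD difference was 3.97 points within CCGG and 6.59 points outside, and 4.5 points beyond 20000 bp against 6.85 points at 5000 to 10000 bp.

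**Figure D2:**
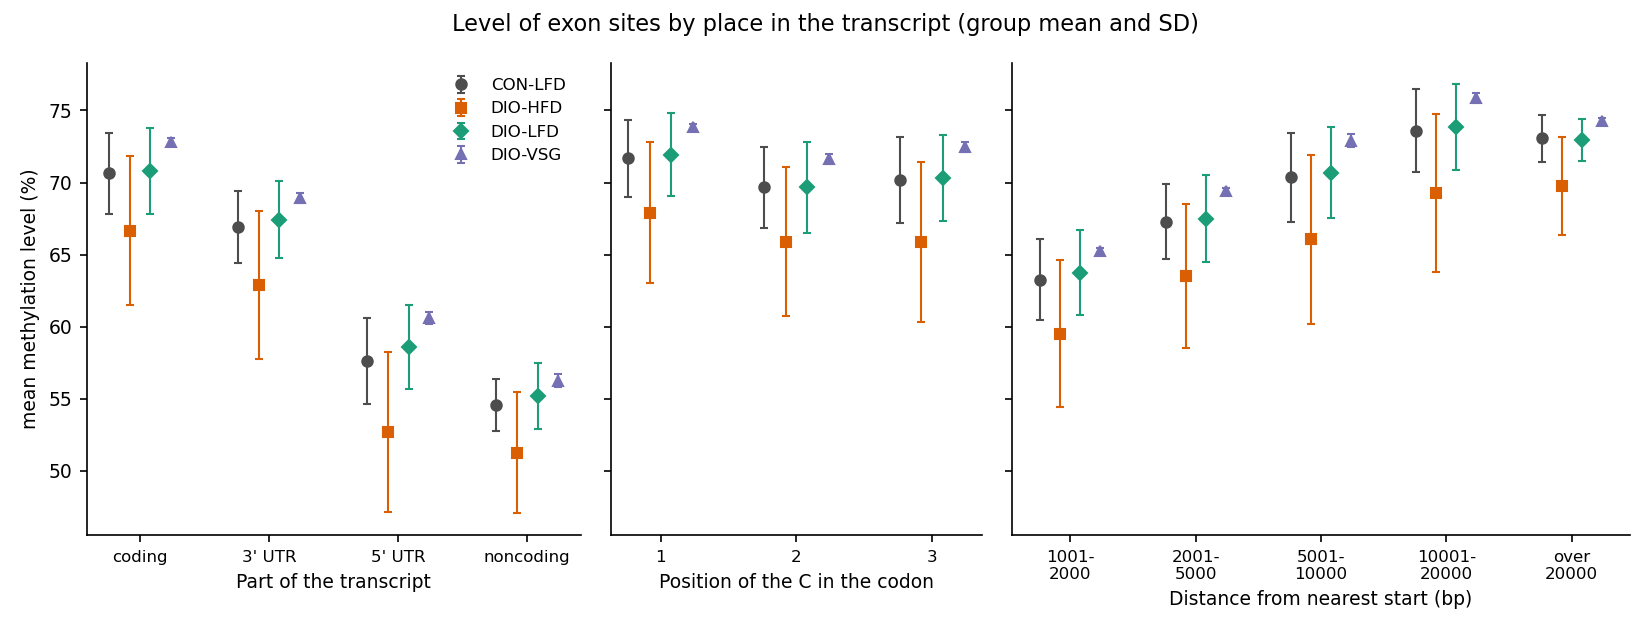
Mean methylation level (%, axis not starting at 0) of exon sites by part of the transcript, by position of the C in its codon and by distance from the nearest transcript start, as group mean with SD over mice. Coding sites were the highest part of the transcript and noncoding exons the lowest in all 4 groups: in DIO-VSG coding sites stood at 72.8% and noncoding exons at 56.3%, and in DIO-HFD at 66.7% and 51.3%.

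The direction of the difference of group means varied with the level of the site. Exon sites were sorted by their mean in CON-LFD mice, which enter neither side of the DIO-VSG to DIO-HFD difference. In the 2972 sites at 60 to 80% the DIO-VSG mean exceeded the DIO-HFD mean by 8.77 points, in the 3668 sites at 80 to 100% by 6.18 points, and in the 1414 sites at 40 to 60% by 5.92 points. In the 766 sites at 20 to 40% it was lower by 0.756 points, at 30.1% against 30.9%, and in the 320 sites under 20% it was lower by 2.44 points, at 13.5% against 16%. DIO-HFD replicate 1 went against the group means in the upper bins: at 60 to 80% it stood at 76.9%, above the 74.6% to 75.7% of the DIO-VSG mice, and at 80 to 100% at 89.6%, above their 88.0% to 88.7%. Under 20% DIO-HFD replicate 1 stood at 13.90%, within the 12.88% to 13.92% of the DIO-VSG mice, and its group mates at 14.9% to 19.3%. At 20 to 40% the groups overlapped. There DIO-VSG mice stood at 29.8% to 30.6% and DIO-HFD replicates 2 to 4 at 29.5% to 32.4%. These bins were not tested. Intron sites gave -1.25, 1.64, 6.60, 8.60 and 5.44 points in the same bins from low to high, and the differences between the classes were not tested.

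**Figure D3:**
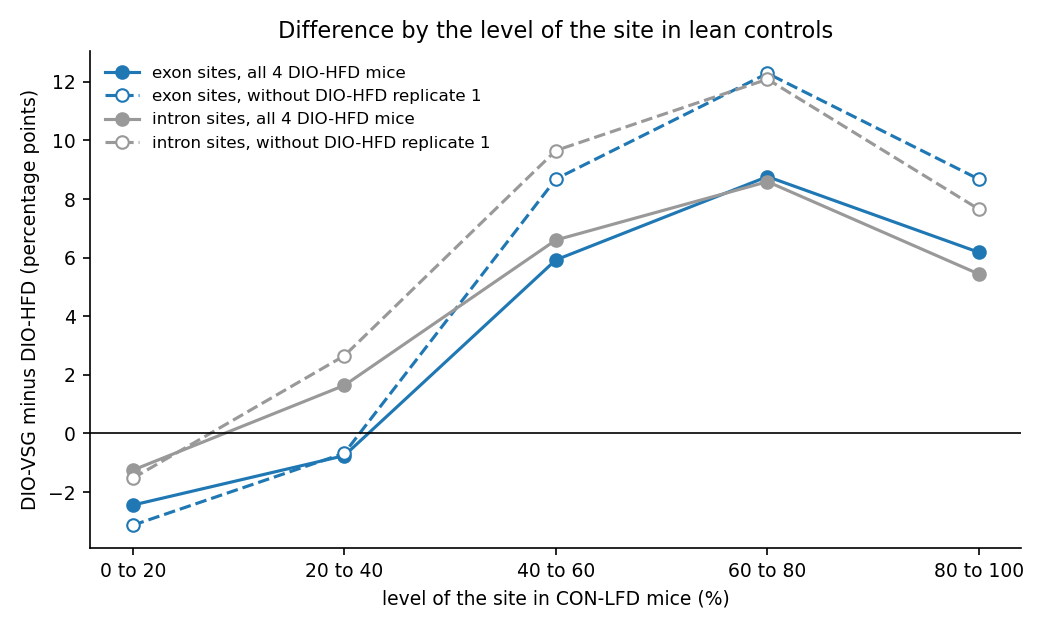
Difference of group means, DIO-VSG minus DIO-HFD (percentage points), for exon and intron sites sorted into 5 bins by their level in CON-LFD mice (%). Exon sites ran from -2.44 points under 20% to 8.77 points at 60 to 80%, and without DIO-HFD replicate 1 (dashed lines) from -3.13 to 12.3 points.

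Site by site, 8026 exon sites entered the limma fit, which took the 65610 sites of the whole table with an SD of at least 0.05 and worked on M, the log2 ratio of methylated to unmethylated share. The other 1114 exon sites (12.2%) varied too little to be tested. With all 14 mice no exon site passed an adjusted p of 0.05 in any comparison, where the whole table had 0%, 0.00305%, 0.00305% and 0.00305% of its sites called for CON-LFD, DIO-LFD and DIO-VSG against DIO-HFD and DIO-VSG against DIO-LFD. The smallest adjusted p by limma among exon sites was 0.611, 0.382, 0.150 and 0.165 in that order.

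At an unadjusted p under 0.05, 678 exon sites (8.45%, against 7.76% of the table) differed between CON-LFD and DIO-HFD, and 944 (11.8%, against 10.1%) between DIO-LFD and DIO-HFD. DIO-VSG differed from DIO-HFD at 2633 exon sites (32.8%, against 25%), while intron sites gave 32.2% and intergenic sites 20.8%. The exon share was therefore above that of the table and close to that of introns. Between DIO-VSG and DIO-LFD 220 exon sites (2.74%, against 3.98%) passed. These counts moved with single mice. Without DIO-HFD replicate 1 they were 3482, 3743, 5167 and 519 in the order above, or 43.4%, 46.6%, 64.4% and 6.47% of exon sites. In the same fit intron sites gave 40.4%, 42.9%, 57.9% and 6.55%, and intergenic sites 24.4%, 24.4%, 35.2% and 7.35%. Without DIO-HFD replicate 2, 3 or 4 the first exon count was 312, 288 and 273, the second 469, 461 and 455, and the third 1320, 1355 and 1392. The count for CON-LFD was 225, 315 and 1176 without CON-LFD replicate 1, 2 or 3, and without DIO-LFD replicate 1 the count for DIO-LFD against DIO-HFD was 471 and that for DIO-VSG against DIO-LFD 499. In fits of only the 2 groups compared the counts were 229, 332, 2269 and 444. For these fits, and those without any other mouse, the share of other sites is not given.

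Most of these sites were higher in the group compared with DIO-HFD. The numbers higher and lower were 540 and 138 for CON-LFD, 802 and 142 for DIO-LFD, 2169 and 464 for DIO-VSG, and 151 and 69 for DIO-VSG against DIO-LFD, so 79.6%, 85.0%, 82.4% and 68.6% were higher. Among all tested sites 6% were higher and 1.76% lower in CON-LFD, 7.92% and 2.16% in DIO-LFD, 20.2% and 4.85% in DIO-VSG, and 2.42% and 1.55% in DIO-VSG against DIO-LFD. With M of every mouse centred on that mouse's median over tested sites, 602, 852, 1741 and 277 exon sites had an unadjusted p under 0.05. Of these 61%, 66.4%, 50.2% and 50.2% were higher. Among the exon sites that passed, about as many were thus higher as lower in DIO-VSG relative to the median of each mouse. The share of all tested sites in the centred fit is not given, so these counts cannot be read as particular to exons. All 4 DIO-VSG mice lay above all 4 DIO-HFD mice at 579 exon sites (7.21%, against 5.55% of the table) and below them at 125 (1.56%, against 2.03%).

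Higher and lower sites differed in their level in CON-LFD mice. The 2169 sites higher in DIO-VSG lay in 905 genes and had a median CON-LFD level of 75.1%, near the 74.6% of all tested exon sites. For the 464 lower sites, in 179 genes, that median was 48.9%, with quartiles of 32.3% and 67.7%. Both sets were mostly coding, 74.5% and 73.1%, and both lay at a like distance from transcript starts, with medians of 5414 and 5212 bp.

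Without DIO-HFD replicate 1, 1414 exon sites (17.6%, against 12% of the table) passed an adjusted p of 0.05 by limma for CON-LFD against DIO-HFD. DIO-LFD against DIO-HFD then gave 1734 sites (21.6%, against 14.6%) and DIO-VSG against DIO-HFD 4112 sites (51.2%, against 34.4%). Intron sites gave 16.6%, 20.5% and 46.3% in the same fit. DIO-VSG against DIO-LFD stayed at 0 exon sites (against 0.00457%). That mouse enters this comparison only through the estimate of spread, which all groups share in the fit.

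The sites with the smallest p for DIO-VSG against DIO-HFD were in Ttn, Spen and Notum. Ttn encodes titin, the giant spring of the sarcomere, and its coding site at chr2:76712796 stood at 100% in all 4 DIO-VSG mice and at 91.4%, 89.7%, 92.6% and 93.8% in DIO-HFD mice (adjusted p = 0.150, limma). Spen, a corepressor of transcription, went the other way: its site at chr4:141477802 stood at 33.6%, 32.1%, 33.2% and 31.4% in DIO-VSG and at 54.2%, 62.8%, 55.0% and 59.0% in DIO-HFD mice, lower by 25.2 points. At the Spen site DIO-HFD replicate 1 lay with the other DIO-HFD mice, and the 2 groups did not overlap. Notum, an enzyme that inactivates Wnt proteins, had a site at chr11:120655785 with 96.5%, 93.3%, 89.9% and 94.9% in DIO-VSG and 81.8%, 78.5%, 78.5% and 81.2% in DIO-HFD. The adjusted p was 0.150 for these sites too, and without DIO-HFD replicate 1 the 3 values were 0.00408, 0.00185 and 0.00367 (limma).

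For CON-LFD against DIO-HFD the leading sites were in Nacad, Fam241b and Tnk2, each with an adjusted p of 0.611 (limma). At chr16:32680526 in Tnk2, a nonreceptor tyrosine kinase, CON-LFD mice had 93.8%, 95.6% and 89.8% and DIO-HFD mice 84.4%, 74.3%, 75% and 69.2%. The site in Nacad, at chr11:6601824 in the third base of a codon, was higher in CON-LFD by 23.6 points, and that in Fam241b, at chr10:62109099, by 11.8 points. None of the 3, which were picked for their small p, overlapped between the groups. Among all tested exon sites 2.68% were higher in CON-LFD without overlap and 0.648% lower, and the share over all sites of the table is not given. Without DIO-HFD replicate 1 the adjusted p was 0.0140 for Tnk2, 0.0108 for Nacad and 0.0181 for Fam241b (limma).

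For DIO-LFD against DIO-HFD they were in Dtx1, Arhgap45 and Cd151, with adjusted p of 0.382, 0.419 and 0.421 (limma). Dtx1, a ubiquitin ligase of the Notch pathway, was the one leading site in a 5′ UTR, at chr5:120710683, and stood at 28.5%, 27.5% and 23.2% in DIO-LFD against 10.1%, 9.84%, 7.75% and 7.25% in DIO-HFD mice. Arhgap45, a GTPase-activating protein, had a coding CCGG site at chr10:80028846 that stood at 100% in every CON-LFD and DIO-HFD mouse and at 92.6%, 87.5% and 85.7% in DIO-LFD mice. Cd151, a tetraspanin of cell adhesion, was higher in DIO-LFD by 17.1 points at chr7:141470671. These sites were picked for their small p, and none of them overlapped between the groups. Among all tested exon sites 3.29% were higher in DIO-LFD without overlap and 0.885% lower, and the share over all sites of the table is not given. Without DIO-HFD replicate 1 the adjusted p was 0.00833, 0.0132 and 0.00630 (limma).

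Between DIO-VSG and DIO-LFD the same Ttn site led, with 90.9%, 84.1% and 83.3% in DIO-LFD mice (adjusted p = 0.165, limma). Heatr4 followed at chr12:83979846, higher in DIO-VSG by 13.2 points, and Rnf126, a ubiquitin ligase, at chr10:79759024 in its 3′ UTR, higher by 11.05 points (adjusted p = 0.431 and 0.633, limma). The Rnf126 site stood at 100% in all DIO-VSG mice. Sites at 100% are at the limit of the scale, and the table gives no reads to show how many molecules lie behind them.

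Neighbouring sites were then read together. The table held 7586 clusters, of which 828 consisted only of exon sites and took in 3827 of them, with a median of 4 sites over 79 bp. Sites of 1 exon cluster differed by an SD of 9.41 points, more than the 6.46 points by which a cluster mean varied over mice. Of the 640 exon clusters tested among 4845, none passed an adjusted p of 0.05 by limma in any comparison (0% of all clusters in each), and the smallest adjusted p was 0.429, 0.371, 0.0639 and 0.920. At an unadjusted p under 0.05 there were 64 exon clusters for CON-LFD (10%, against 10.1% of all clusters), 78 for DIO-LFD (12.2%, against 12.4% of all), 318 for DIO-VSG against DIO-HFD (49.7%, against 48% of all) and 10 for DIO-VSG against DIO-LFD (1.56%, against 2.04% of all). Of the 318, 265 were higher and 53 lower in DIO-VSG, where 40% of all clusters were higher and 8.03% lower. Without DIO-HFD replicate 1 the adjusted counts were 369 (57.7%, against 54.3%), 380 (59.4%, against 56.1%) and 540 (84.4%, against 78.5%), and DIO-VSG against DIO-LFD gave 0 (against 0%).

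The Hectd4 stretch shown above led for DIO-VSG against DIO-HFD. Its 3 sites averaged 91.7%, 100%, 93.7% and 90.8% in DIO-VSG mice and 84.1%, 64.1%, 74.4% and 67.3% in DIO-HFD mice, a difference of 21.6 points (M difference 2.79 ± 0.58 SE, adjusted p = 0.0639, limma). Every DIO-VSG mouse lay above every DIO-HFD mouse, and CON-LFD mice stood at 84.3%, 88.4% and 78.5%, below every DIO-VSG mouse. Alpk3 followed with 91.7%, 87.4%, 88.1% and 90.8% against 84.9%, 71.8%, 63.4% and 67.9%. Qrfp, which encodes a neuropeptide, held a cluster in its 3′ UTR with 89%, 83.9%, 83.6% and 83.2% against 78.2%, 65.8%, 60.8% and 52.1%. In all 3, which were picked for their small p, the groups did not overlap with replicate 1 of DIO-HFD included. Among all tested exon clusters 6.25% were higher in DIO-VSG without overlap and 1.72% lower, and the share over all clusters of the table is not given. In the 3 clusters named DIO-HFD replicate 1 was the highest of its group. Without it the adjusted p was 0.000900 for Hectd4, 0.000179 for Alpk3 and 0.000156 for Qrfp (limma).

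For CON-LFD and DIO-LFD against DIO-HFD the Lrch4 stretch stood out in both, which share the DIO-HFD mice. It averaged 93.3%, 87.0% and 80.9% in CON-LFD mice, 90.1%, 86.5% and 86.3% in DIO-LFD mice, 79.3%, 69.7%, 70.9% and 71.7% in DIO-HFD mice and 88.7%, 86.2%, 85.3% and 90.6% in DIO-VSG mice. The DIO-HFD mice were thus the 4 lowest of the 14, replicate 1 among them (adjusted p = 0.429 and 0.371, limma). In Efna4 DIO-HFD replicate 1 stood at 84.9% and its group mates at 52.7%, 44.5% and 54.8%, against 91.1%, 86.7% and 77.0% in DIO-LFD. Vav2, a guanine nucleotide exchange factor, had the widest split at a 3′ UTR cluster, with 84.1% in DIO-HFD replicate 1 and 34.9%, 34.5% and 43.8% in the others, against 92.9%, 76.9% and 83% in DIO-LFD. In these 2 genes the groups overlapped through that mouse. Without it the adjusted p was 0.00465 and 0.00428 for the Lrch4 stretch in CON-LFD and DIO-LFD, 0.00150 for Efna4 and 0.00113 for Vav2 (limma).

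Between DIO-VSG and DIO-LFD the clusters with the smallest p were in Tirap, Hectd4 and Rufy3, each with an adjusted p of 0.920 (limma). Tirap averaged 89%, 100%, 78.7% and 72.1% in DIO-VSG and 71.8%, 59.4% and 61.4% in DIO-LFD mice, the 2 groups all but touching. It stood at 60.0%, 61.2% and 35.1% in CON-LFD and at 67.5%, 37.6%, 48.9% and 39.4% in DIO-HFD mice. Rufy3 was lower in DIO-VSG, with a difference of -16.2 points, at a weakly methylated 3′ UTR cluster, and its groups overlapped.

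**Figure D4:**
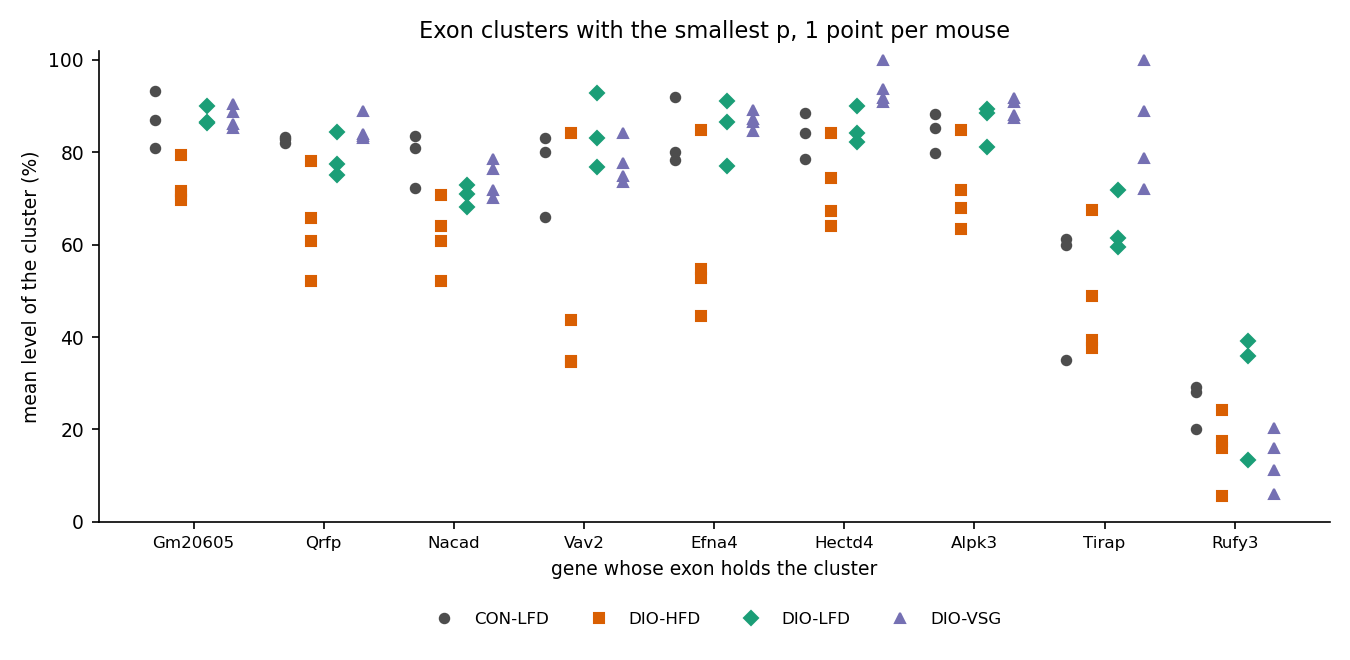
Mean methylation level (%) of the exon clusters with the smallest p in any comparison, with 1 point per mouse; the cluster named Gm20605 lies in an exon shared with Lrch4. DIO-HFD mice were lowest without overlap at Gm20605, with 79.3% as their highest value, while at Vav2 and Efna4 DIO-HFD replicate 1 stood far above its group.

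Among the genes with the most exon sites were Bsn (51 sites), Irs2 (38), Rai1 (37), Tns2 (36), Ltbp3 (34), Midn (34), Caskin2 (31), Myo15b (31), Cacna1g (30), Apc2 (29) and Nacad (29). In Rai1 and Apc2 the mean over exon sites was lower in DIO-VSG than in DIO-HFD, and in the others it was higher. Sites of 1 gene share the gene and often the fragment, so the mouse is the unit here, and no gene mean was tested.

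Midn, which carries nuclear proteins to the proteasome, stood at 80.9%, 56.6%, 55.6% and 55.5% in DIO-HFD mice and at 77.5%, 76.4%, 74.6% and 76.7% in DIO-VSG mice. Caskin2, a scaffold protein, had 80.5%, 61.4%, 59.8% and 62.0% against 78.9%, 81.4%, 80.1% and 80.6%. In both genes DIO-HFD replicate 1 lay among or above the DIO-VSG mice and the other 3 DIO-HFD mice far below. Differences of group means were 14.2 points for Midn and 14.3 for Caskin2, and at an unadjusted p under 0.05 16 of 33 and 17 of 30 tested sites were higher in DIO-VSG and 0 lower. Ltbp3 (11.3 points), Nacad (11.7), Myo15b, an unconventional myosin (10.8), and Cacna1g (9.98) had the same pattern over mice. Nacad, for example, stood at 70.8%, 48.2%, 48.6% and 54.5% in DIO-HFD and between 66.5% and 67.9% in DIO-VSG mice.

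Smaller differences were seen in 3 of the genes. Irs2, the insulin receptor substrate, was higher in DIO-VSG by 8.21 points. Irs2 varied widely within groups, with 79.8%, 79.5% and 65.1% in CON-LFD and 82.1%, 57.7% and 72.5% in DIO-LFD mice. Bsn, the presynaptic scaffold bassoon, differed by 4.85 points, and Tns2, a focal adhesion tensin, by 1.87 points. In Tns2 the DIO-VSG mice stood between 65.7% and 66.2%, inside the 62.1% to 66.3% of the DIO-HFD mice, and 7 of its 35 tested sites were higher and 5 lower.

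Rai1 stood at 52.6%, 60.9%, 63.8% and 65.5% in DIO-HFD mice and at 52.6%, 51.7%, 53.5% and 50.8% in DIO-VSG mice, lower by 8.58 points. Of its 35 tested sites 15 were lower in DIO-VSG and 1 higher at an unadjusted p under 0.05, where 5.78% of all tested exon sites were lower and 27% higher. The difference was not spread evenly over the gene, since the 11-site stretch printed above averaged 53.3% ± 3.45 in DIO-HFD and 52.2% ± 2.01 in DIO-VSG (SD, n = 4 each) and varied too little over mice to be tested. Apc2 stood at 44.2%, 49.1%, 49.0% and 46.2% in DIO-HFD and at 42.9%, 42.9%, 41.8% and 42.2% in DIO-VSG mice, with 10 of 29 sites lower and 0 higher. All 4 DIO-VSG mice lay below all 4 DIO-HFD mice in Apc2. Its 10-site stretch in the last exon was at 16.3%, 39.0%, 40.5% and 38.5% in DIO-HFD and 17%, 18.9%, 17.3% and 17.3% in DIO-VSG (adjusted p = 0.0639, and 0.000311 without DIO-HFD replicate 1, limma). There DIO-HFD replicate 1 was the lowest mouse of all 14.

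The Cacna1g stretch in its last exon shows the opposite direction. It averaged 79.9%, 62.2%, 60.6% and 61% in DIO-HFD and 82.5%, 78.8%, 80.9% and 80.4% in DIO-VSG mice (adjusted p = 0.0639, and 0.000147 without DIO-HFD replicate 1, limma). Within it single sites averaged from 42.0% to 84.0% over the 14 mice. The Ltbp3 stretch averaged 68.2% ± 15.1 in DIO-HFD and 77.1% ± 0.979 in DIO-VSG (SD, n = 4 each; adjusted p = 0.282, and 0.00718 without DIO-HFD replicate 1, limma).

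**Figure D5:**
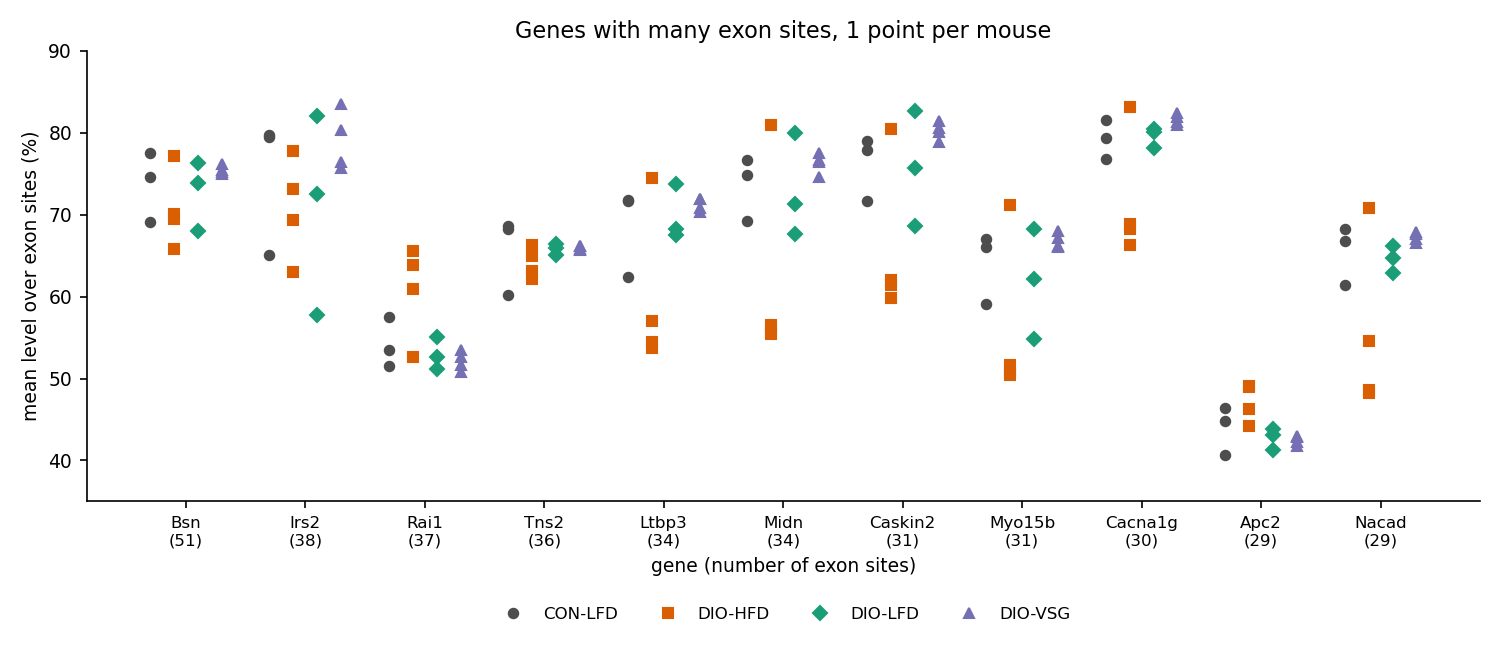
Mean methylation level over exon sites (%, axis not starting at 0) of the genes named for their many exon sites, with 1 point per mouse and the number of sites in brackets. In Midn 1 DIO-HFD mouse stood at 80.9% and 3 between 55.5% and 56.6%, whereas in Rai1 the DIO-VSG mice, at 50.8% to 53.5%, lay with the lowest DIO-HFD mouse at 52.6% and below the others.

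Over the 215 genes with at least 10 exon sites, the DIO-VSG mean exceeded the DIO-HFD mean in 180 and was lower in 35, with a median difference of 7.79 points. CON-LFD exceeded DIO-HFD in 184 genes (median 5.10 points), DIO-LFD exceeded DIO-HFD in 177 (median 5.13 points), and DIO-VSG exceeded DIO-LFD in 170 (median 2.41 points). The first 3 counts share the DIO-HFD mice. All 4 DIO-VSG mice lay above all 4 DIO-HFD mice in 7 genes and below them in 5, and against DIO-HFD replicates 2 to 4 alone in 164 and 24 genes. Against all 4 DIO-HFD mice, 5.55% of tested sites of the table lay above and 2.03% below, beside 7.21% and 1.56% of exon sites. No like count is given for genes by their intron sites, so these gene counts cannot be read as particular to exons.

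The extremes of these 215 genes, chosen after their values were seen, were Ccdc88b, Runx3 and Zfp385a at one end and Asphd2, Fam166b and Tbx2 at the other. Ccdc88b (17 sites) stood at 82.5%, 34.1%, 39.0% and 37.5% in DIO-HFD and between 65.4% and 75.3% in DIO-VSG mice. Runx3, a transcription factor of lymphocytes, stood at 50.4%, 14.6%, 16.4% and 19.7% against 44.1% to 48.2%. Zfp385a, a zinc finger protein, stood at 73.3%, 37.1%, 36.1% and 31.6% against 62.1% to 68.4%. In the other direction Tbx2, a T-box developmental factor, stood at 18%, 41.8%, 48.8% and 36.3% in DIO-HFD and at 16%, 23.5%, 25.1% and 17.7% in DIO-VSG mice. Asphd2 was lower in DIO-VSG by 16.9 points and Fam166b by 16.8 points. In each of the 6 genes DIO-HFD replicate 1 stood on the far side of its group, with the DIO-VSG mice or beyond them.

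Gene lists drawn up for this tissue are described by their counts and medians, with no test. Over all exon sites the median difference between DIO-VSG and DIO-HFD was 6.97 points. Of the tested exon sites 32.8% had an unadjusted p under 0.05, with 27% higher and 5.78% lower in DIO-VSG. The immune list, of which 5 of 28 genes had exon sites, gave a median of 14 points, and 35 of 58 tested sites (60.3%) were higher and 0 lower. In DIO-LFD against DIO-HFD 27 of the 58 immune sites (46.6%, against 11.8% of exon sites) were higher and 0 lower, and in CON-LFD against DIO-HFD 2 of the 58 (3.45%, against 8.45%). Without DIO-HFD replicate 1 the median difference between DIO-VSG and DIO-HFD was 20.5 points for the immune list and 9.65 points over all exon sites. Tgfb1, the growth factor, stood at 76.2%, 52.3%, 61.9% and 56.6% in DIO-HFD and 77.6%, 72.4%, 75.4% and 77.3% in DIO-VSG mice. Jak3, the kinase of cytokine receptors of lymphocytes, stood at 82.5%, 58.5%, 60.6% and 60.8% against 81.4%, 80.8%, 80.7% and 76.2%. Cd4, the T-helper coreceptor, stood at 84.5%, 65.0%, 62.0% and 67.3% against 83%, 82.4%, 80.1% and 84.2%. In all 3 immune genes DIO-HFD replicates 2 to 4 lay below every DIO-VSG mouse and replicate 1 did not.

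In adipocyte and lipid metabolism genes the median difference was near that of all exon sites. Their median site level was higher, at 81.7% against 75.3%. Of 40 genes 9 had exon sites, with a median difference of 7.16 points. At an unadjusted p under 0.05, 18 of 64 tested sites were higher in DIO-VSG and 1 lower (29.7%, against 32.8% of exon sites). Fasn, the fatty acid synthase, differed by 4.52 points, Lrp1, a lipoprotein receptor, by 7.71 points, and Pnpla2, the adipose triglyceride lipase, by 6.79 points. The collagen and matrix list (32 genes, 191 tested sites) gave 60 sites higher and 6 lower (34.6%, against 32.8%), with a median of 7.40 points. In Hspg2, the basement membrane proteoglycan perlecan, the difference was 9.44 points, and in Col11a2, a fibrillar collagen chain, 7.31 points.

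Insulin and growth signalling genes (8 of 33 genes) gave a median of 7.40 points. Of their 74 tested sites 10 were higher in DIO-VSG and 0 lower, a share of 13.5% against 32.8% of exon sites. Pik3r2, a regulatory subunit of PI3-kinase, was higher by 8.84 points, whereas the 12 sites of Foxo6, a forkhead factor, gave 0.859 points with DIO-HFD mice from 43.0% to 69.5%, and 3.90 points without DIO-HFD replicate 1. Chromatin and DNA methylation enzymes (15 of 36 genes) had 16 of 97 tested sites higher and 7 lower (23.7%, against 32.8%), with a median of 7.16 points. Kmt2d, a histone H3 lysine methyltransferase, was higher by 6.98 points, and Chd5, a chromatin remodeler, was lower by 0.624 points. Without DIO-HFD replicate 1 the Kmt2d difference was 11.3 points, and that of Chd5 turned to 0.0119 points above DIO-HFD. Zinc finger genes named Zfp (31 genes) had 36 of 120 tested sites higher and 8 lower (36.7%, against 32.8%), with a median of 7.10 points. Zfp651 was higher by 9.64 points and Zfp628 by 7.35 points. The clustered protocadherins had 6 sites in 2 genes, Pcdhgb7 and Pcdhgc5, of which 1 was higher (16.7%, against 32.8%).

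Homeobox and other developmental factors were split in direction. Their 224 sites in 54 genes had a median level of 56.5%, below the 75.3% of all exon sites, and a median difference of 3.7 points. Of 198 tested sites 26 were higher in DIO-VSG and 22 lower (24.2%, against 32.8% of exon sites). Gata2, a hematopoietic and endothelial factor, was higher by 6.28 points and Foxp4, a forkhead factor, by 7.89 points. Irx3os, an antisense RNA gene beside Irx3, stood at 32.2%, 31.0%, 43.1% and 26.9% in DIO-HFD and at 22.1%, 28.4%, 22.3% and 22.9% in DIO-VSG mice, lower by 9.37 points.

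Few defining markers of cell types had exon sites. Of 12 markers each, 4 were covered for adipocytes (Lipe, Cebpa, Pnpla2 and Slc2a4; 22 sites), 3 for mammary epithelium (Krt18, Foxa1 and Cldn4; 8 sites) and 1 for immune cells (Cd4; 13 sites). Adipocyte marker sites averaged from 73.1% to 81% in CON-LFD, 70.3% to 81.5% in DIO-HFD, 76.8% to 82.0% in DIO-LFD and 81.5% to 83.4% in DIO-VSG mice. Epithelial marker sites averaged from 67.6% to 79.4%, 72.2% to 85.6%, 75.7% to 82.1% and 77.4% to 81.8% in the same order. The mammary epithelial list of 22 genes had 5 with exon sites, and 1 of its 10 tested sites was higher in DIO-VSG (10%, against 32.8%). Krt18, an epithelial keratin, was higher by 3.90 points, Gata3, a luminal factor, by 4.02 points and Cldn4 by 8.34 points. Without DIO-HFD replicate 1 these differences were 6.95, 7.26 and 11.8 points. DNA methylation in exons does not name a cell type, and the part of cell composition in these differences was not tested.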

How the data were processed

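Per the labels and the study's methods, DNA of 14 mice was cut with MspI for RRBS, and the authors used Bismark against mm10, then samtools for sorting, and methylKit for the methylation calls. The authors removed 1 CON-LFD and 1 DIO-LFD outlier. The authors deposited 1 fraction per site and mouse, the share of reads that were methylated, along with the flags for promoter, exon, intron and island. The methods state that sites with an SD under 0.05 were removed, yet the table still held such sites. It gave no read counts, so that depth is unknown and neither intervals nor detection limits could be given. The methods do not name the test of single sites. Whether replicates came from separate cages was not given, and p-values measure the spread between these mice.

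Fractions were printed as percent. Host gene, part of the transcript, exon number and codon position came from GENCODE M21, with exon numbers counted in the transcript chosen for each site, and sequence from GRCm38 (mm10) with samtools 1.23.1. limma 3.58.1 in R 4.3.3 was run over all 65610 sites with an SD of at least 0.05, and over 4845 clusters, on M = log2((b + 0.01)/(1 - b + 0.01)) with Benjamini-Hochberg adjustment over all of them. Mean levels were compared by exact permutation with SciPy 1.17.1, without the SD filter. The scripts were tested on simulated data. Named were the 12 genes with the most exon sites, the 3 sites and the 3 clusters with the smallest p per comparison, and the 3 genes of each list with the most exon sites, of which 2 genes are not reported here. The exon sites, gene lists and named-gene rule were chosen with earlier results of these data known. Alternatives covered the SD filter, the offset, the M scale, centring, weighting by gene, CCGG sites, the replicate block, cluster size and gap, and each mouse left out.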

Additional observations from a re-analysis of the deposited data

Results flagged for a closer look

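In 16 of 115 groups of 4 mice tested, 1 mouse lay far from the other 3, its gap to the nearest of them taking up more of the group's range than Dixon's 95% limit allows. Chance alone flags about 1 in 20 groups, here 5.75 of 115, and the groups are not independent because the same mice recur.

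DIO-HFD replicate 1 was the far mouse in 12 of them, and the highest in each. The gap was 0.889 of the range for the mean level of exon sites, with 72.7% against 61.8% to 63%. Among genes it was 0.841 for Ltbp3, 0.956 for Midn (80.9% against 55.5% to 56.6%), 0.895 for Caskin2, 0.939 for Myo15b, 0.847 for Cacna1g, 0.890 for Krt18, 0.847 for Gata3, 0.908 for Jak3, 0.860 for Hspg2, 0.933 for Kmt2d and 0.869 for Zfp385a (73.3% against 31.6% to 37.1%). What set this library apart was not tested.

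The other 4 concerned other mice. In Jak3 DIO-VSG replicate 4 was the lowest of its group, with 76.2% against 80.7% to 81.4% (gap 0.853 of the range). In Irx3os DIO-VSG replicate 2 was the highest, with 28.4% against 22.1% to 22.9% (gap 0.869). At the Rnf126 site DIO-HFD replicate 4 stood at 93.8% and the other 3 at 100% (gap 1 of the range). At the Qrfp cluster DIO-VSG replicate 1 was the highest, with 89% against 83.2% to 83.9% (gap 0.875).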

How the results depend on the processing

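Of the values recomputed under alternatives 284 kept their direction or side of the threshold, 19 moved and 8 reversed. The 284 did not all keep their size. Without DIO-LFD replicate 2, for example, the mean difference between DIO-VSG and DIO-LFD fell from 1.89 to 0.480 points. The reversed values were the small exon-minus-intron gaps and the exon-minus-intron level. With each gene weighted equally the level difference was -0.170 points and the gap between DIO-LFD and DIO-HFD 0.153 points. With each mouse left out in turn the gap ran from -0.243 to 0.128 points for CON-LFD and from -0.324 to 0.225 for DIO-LFD against DIO-HFD, from -0.026 to 0.313 for DIO-VSG against DIO-HFD and from -0.085 to 0.463 for DIO-VSG against DIO-LFD. The exon sites called at an adjusted p of 0.05 then ran from 0 to 1414, 0 to 1734, 0 to 4112 and 0 to 1 in the order used above, and the exon clusters from 0 to 369, 0 to 380, 0 to 540 and 0 to 0. The high ends came without DIO-HFD replicate 1, and the cause was not tested. Without CON-LFD replicate 1 or 2, or DIO-LFD replicate 2 or 3, the count was at most 1 per comparison: Ttn for DIO-VSG, and Megf10 or Cd4, named after their values were seen, where a DIO-LFD mouse was left out. In fits of only the 2 groups compared 1 exon site passed for DIO-LFD against DIO-HFD (Arhgap45, adjusted p = 0.0459), 1 for DIO-VSG against DIO-HFD (Ttn, 0.00322) and 1 for DIO-VSG against DIO-LFD (Ttn, 0.0140, limma).

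For DIO-VSG against DIO-HFD the count of exon clusters was 0 of 640 tested in the fit reported. It was 182 on the level in place of M, 153 with an offset of 0.1 and 76 with trend and robust variance. The smallest adjusted p in the fit reported was 0.0639, and the cause of the change was not tested. With the replicate number as a block the count was 240. The share of all clusters called under these settings is not given, so these counts cannot be read as particular to exons. Of 19 same-numbered pairs 8 had deviations correlated over 0.1 (range -0.367 to 0.556), and the numbers were not taken to pair mice. Replicate 1 nevertheless had the highest mean exon level in every group, and correlations among its pairs ran from 0.0991 to 0.556. What the replicate numbers stand for was not tested. The block left the other counts at 0 and gave mean differences of 3.57, 3.82, 6.10 and 2.28 points.

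Read depth is unknown, a coverage minimum could not be tried, and levels at 0% or 100% rest on an unknown number of molecules. Groups of 3 or 4 mice limit what any comparison can show.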
